A study of Homo sapiens with 8 samples.

Results

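A set of 94 genes, out of 54261 counted, was read in the 2 libraries of HCT116 and in the library of NCM460 and was almost absent from the 5 other libraries. HCT116 is a colorectal cancer (CRC) line, and NCM460 is described as a line of normal intestinal epithelium. The genes were selected on their raw counts: at least 50 in each of the 3 libraries and at most 3 in each of the 5 others. Names that started with LINC, HOX, PCDH, COL or HIST, or held -AS, were left out, which removed 5 of 99 genes. These counts chose the members, so the contrast between the 3 libraries and the 5 others is described below and not tested.

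Total RNA without ribosomal RNA was sequenced from 5 lines, each as 1 library. NCM460 and HIEC6 formed the normal group, and DLD1, HCT116 and HCT8 formed the CRC group. By the study's methods DLD1 is mutant for p53 and APC and HCT8 for APC; no genotype was given for HCT116. A 3rd group held DLD1, HCT116 and HCT8 again, each under hypoxia, for which the labels give no time or oxygen level. All lines were grown in DMEM with 10% fetal bovine serum and were labelled passage P5. Within a group the samples are different lines, and no line has a second culture of the same treatment.

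Total counts lay between 45519306 and 57374239 per library. The library labelled NCM460 did not stand with HIEC6. On the scale of log2(CPM + 1) over the 54261 genes, it correlated with HCT116 at 0.994 (Pearson) and with HCT116 under hypoxia at 0.981. CPM is the count scaled to a library total of 1000000. The correlation was 0.98 to 0.994 between the untreated and hypoxia libraries of the same line, and 0.908 to 0.973 for all 23 other pairs of different lines. Genes are not independent replicates, so these values only describe the libraries. EPCAM, an adhesion molecule of epithelium, had 10 counts in HIEC6 and 10969 to 33357 in the 7 others. CDX2, an intestinal transcription factor, had 3 counts in HIEC6 and 534 to 18275 in the others. The keratins KRT8 and KRT18 were high in all 8 libraries, at 71573 to 300346 counts, and HIEC6 had 243272 and 211257. VIM, an intermediate filament of mesenchymal cells, had 69375 counts in HIEC6 and 10 to 1142 elsewhere, while DCN and THY1 of the same marker list had 4 and 2 counts in HIEC6. VIL1, which encodes villin of the intestinal brush border, had 2 to 13 counts in HCT116, HCT116 under hypoxia, NCM460 and HIEC6, and 411 to 19353 in the libraries of DLD1 and HCT8. In HCT116 and NCM460, EPCAM had 14373 and 14807 counts and CDH1 had 6602 and 7231. CDH1 was higher in the libraries of DLD1 and HCT8, at 51184 to 66073 counts, and had 172 in HIEC6. One run label was carried by 3 libraries, those of NCM460, DLD1 under hypoxia and HCT116 under hypoxia. Its part in the results was not tested. Which line the library labelled NCM460 came from was not tested.

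In human cells, genes used in brain, testis, nose or embryo are mostly silent in epithelium, and tumor lines differ in which of them are on. Promoters rich in CpG pairs usually serve genes that many cells use or that guide development, and CpG-poor promoters usually serve tissue-restricted genes. Olfactory receptors are G protein-coupled receptors that detect odorants in the nose. They lie in large clusters, one of which surrounds the beta-globin genes. Long noncoding RNAs (lncRNAs) are transcripts with no known protein product.

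The promoters of 51 of the 94 members were found in RefSeq (GRCh38.p14), as 250 bases before the start of the gene and 50 after it. Those of RET and WNT3A are shown as CpG-rich examples. IL1RAPL1 had the largest upward difference between the HCT116 libraries, and LOC102723596 is a lncRNA gene whose promoter held no CpG pair. Each line gives the 250 bases before the start, 5′ to 3′, with CG pairs in capitals.
RET: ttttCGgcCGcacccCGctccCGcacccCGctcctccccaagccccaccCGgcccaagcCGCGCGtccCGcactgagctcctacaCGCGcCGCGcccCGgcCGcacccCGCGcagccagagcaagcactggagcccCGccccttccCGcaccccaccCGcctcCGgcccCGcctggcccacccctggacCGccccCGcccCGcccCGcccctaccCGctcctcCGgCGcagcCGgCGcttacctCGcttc
WNT3A: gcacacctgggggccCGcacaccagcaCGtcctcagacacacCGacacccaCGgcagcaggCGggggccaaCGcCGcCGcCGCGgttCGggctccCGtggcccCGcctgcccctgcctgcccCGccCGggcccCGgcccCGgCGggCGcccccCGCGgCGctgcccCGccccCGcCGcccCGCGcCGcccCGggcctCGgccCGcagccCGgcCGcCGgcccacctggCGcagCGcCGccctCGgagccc
IL1RAPL1: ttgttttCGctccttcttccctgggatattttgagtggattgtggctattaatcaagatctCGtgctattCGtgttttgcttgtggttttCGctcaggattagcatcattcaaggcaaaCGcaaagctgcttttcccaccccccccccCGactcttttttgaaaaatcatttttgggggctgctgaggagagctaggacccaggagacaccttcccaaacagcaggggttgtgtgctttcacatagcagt
LOC102723596: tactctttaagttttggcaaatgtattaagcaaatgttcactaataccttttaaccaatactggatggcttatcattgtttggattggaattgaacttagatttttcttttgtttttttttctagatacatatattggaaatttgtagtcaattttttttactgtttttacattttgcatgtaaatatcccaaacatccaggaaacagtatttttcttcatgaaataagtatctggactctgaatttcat
They lie at chr10:43076819-43077068 (plus strand), chr1:228006748-228006997 (plus strand), chrX:28587196-28587445 (plus strand) and chr3:5962282-5962531 (plus strand). The RET stretch held 33 CG pairs, WNT3A 38, IL1RAPL1 6 and LOC102723596 0.

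CpG-rich promoters made up a smaller share of the members than of other genes read in these libraries. A promoter was called CpG-rich at a GC content above 50% and an observed to expected CpG ratio above 0.6. By this measure 25 of 51 members (49.0%) were CpG-rich, against 82.6% of 9673 promoters of genes with at least 50 counts in the same 3 libraries. Among protein-coding genes alone the shares were 62.2% (n = 37) and 83.3% (n = 9381). Over all 27305 promoters in the table the share was 46.8%. In the 60 genes chosen by the same rule for DLD1 and HCT8, 41 promoters were found and 39.0% of them were CpG-rich. Of the motifs searched on both strands, the ETS core CCGGAAG was in 0 of 51 member promoters, against 19.8% of the genes read in these libraries and 10.7% of all promoters. The E-box CACGTG was in 0 of 51 as well, against 10.2% and 7.43%. The TATA box TATAAA was in 9.80% of the members, 5.01% of the genes read and 11.95% of all. CCAAT was in 49.0%, 36.5% and 35.7%, and TGACTCA in 3.92%, 2.76% and 4.92%. ACGTG, the core bound by hypoxia-inducible factors and a part of the E-box, was in 13.7%, 26.8% and 21.6%. Within the CpG-rich promoters the ETS core was in 0 of 25 members and 22.1% of 7987 genes. These are matches of letters and were not tested.

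The members were read at low to moderate levels, and the floor in the other libraries was near 0. Together they had 40690 counts in HCT116 (779 CPM), 38907 in HCT116 under hypoxia (702 CPM) and 36808 in NCM460 (748 CPM). The 5 other libraries had 22 to 33 counts over all 94 genes. Single members had 70 to 3797 counts in HCT116 (median 219.5), 53 to 5882 in HCT116 under hypoxia (median 196) and 50 to 2255 in NCM460 (median 205.5). Of the 470 values in the other libraries, 368 (78.3%) were 0, 75 were 1, 19 were 2 and 8 were 3. For 31 members all 5 of those libraries were at 0. A count of 0 allows a level of up to 3 counts, or 0.0523 to 0.0659 CPM by library, and this covers counting error only.

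**Figure D1:**
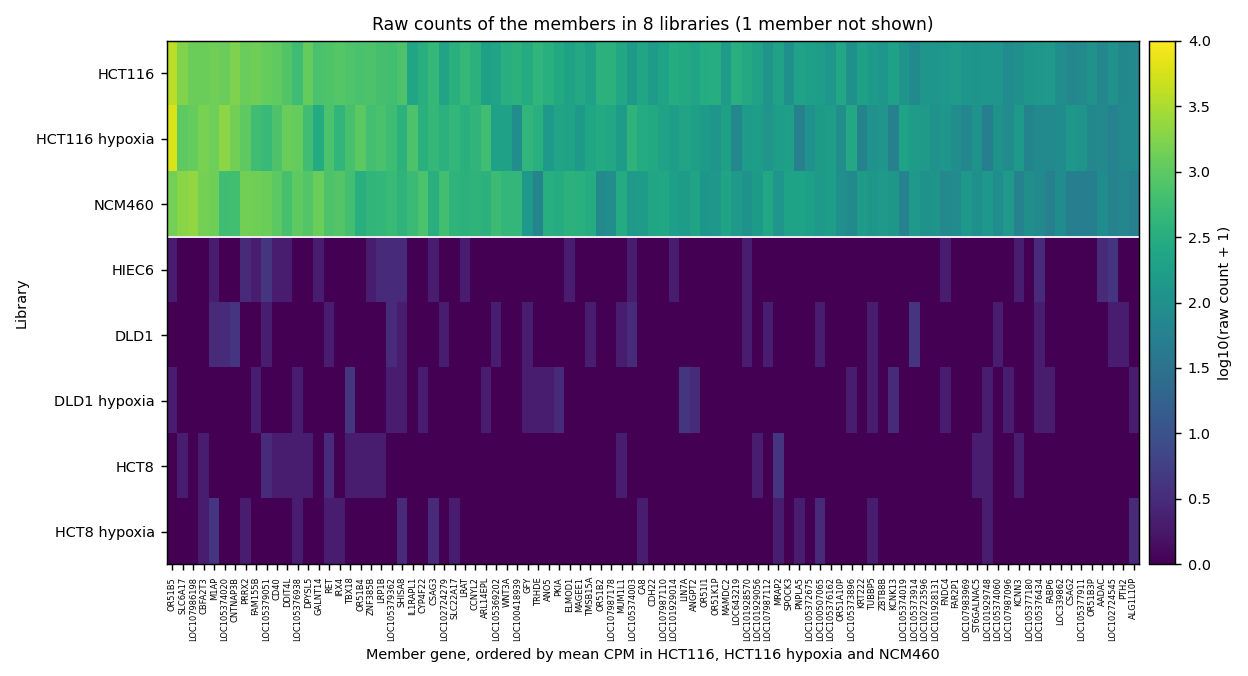
Raw counts of the members (columns, 1 member not shown, ordered by mean CPM in the 3 libraries that chose them) in the 8 libraries (rows), as log10(count + 1). The top 3 rows hold 50 to 5882 counts and the lower 5 rows hold 0 to 3, as the rule requires.

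Some members lay close to the threshold of the rule. The lowest inside were CSAG2, with 50 counts in NCM460, OR51B3P with 52 and LOC105377911 with 53. M1AP, TBX18 and CNTNAP3B were inside with a 3 in 1 of the other libraries. Just outside were LOC101928004 (49 counts in HCT116), LOC105377446 (47 in HCT116) and EDNRA (46 in HCT116 under hypoxia). TSPAN18 was outside by 4 counts in HCT8 under hypoxia, with 2117, 1901 and 1638 counts in HCT116, HCT116 under hypoxia and NCM460. HTR7 and ANKRD19P were outside in the same way, and 17 genes had a highest count of 4 in the 5 libraries.

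The same rule was applied with 1 library left out, so that its counts had no part in the choice. Without NCM460 it gave 100 genes, and NCM460 had at least 50 counts for 94 of them and at most 3 for 0. The 6 others had 13 to 46 counts there, among them OR51AB1P (13), OR51B8P (15), SLC15A1 (17), LOC100507377 (19) and LOC107985225 (46). Over the whole table, 13308 genes had at least 50 counts in both HCT116 libraries, and 13071 of them had at least 50 in NCM460. A high share is thus usual for genes read in HCT116. Without both HCT116 libraries the rule gave 125 genes, of which 105 (84%) had at least 50 counts in HCT116 and 100 (80%) in HCT116 under hypoxia. Of all 14086 genes with at least 50 counts in NCM460, 13614 had at least 50 in untreated HCT116. SLC12A5, a potassium chloride transporter, was the gene on in NCM460 and at most at 3 in all the other libraries, with 70 counts in NCM460, 1 in HCT116 and 3 in HCT116 under hypoxia. No gene (0) met the rule for HCT116 alone, while 110 met it for HIEC6, 25 for HCT8 and 18 for DLD1. Pairing NCM460 with DLD1, HCT8 or HIEC6 gave 0 genes each.
HIEC6 gave another picture. With it left out the rule gave 161 genes, and HIEC6 had at least 50 counts for 50 of them (31.1%). For 94 of them (58.4%) it had at most 3. With both DLD1 libraries left out, DLD1 was on at 50 counts or more for 9 of 135 genes, and HCT8, treated likewise, for 17 of 139.

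**Figure D2:**
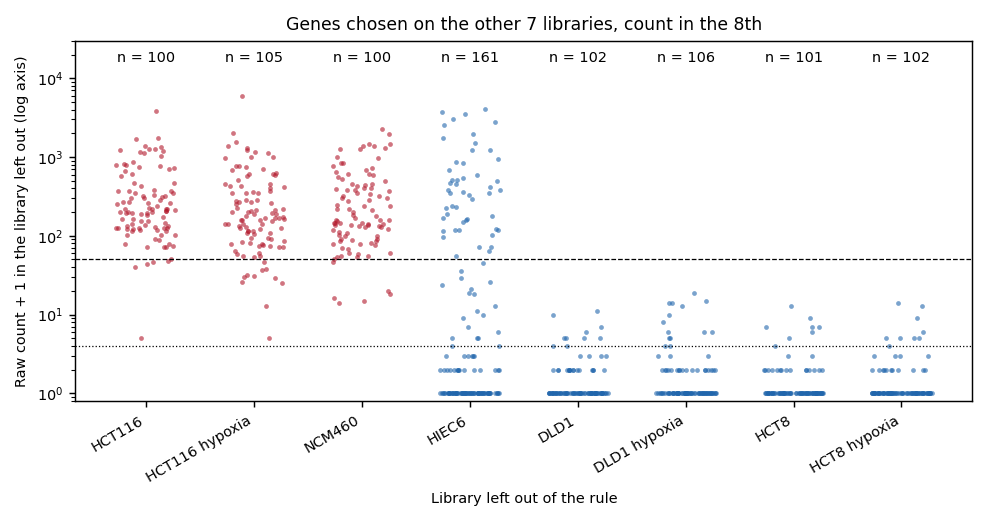
Raw count + 1 (log axis) of each gene in the library named on the x axis, for genes chosen by the rule on the other 7 libraries; the dashed line marks 50 counts and the dotted line 3. The 3 libraries of HCT116 and NCM460 sit almost wholly above 50, HIEC6 is spread from 0 to 4106, and the DLD1 and HCT8 libraries reach at most 18.

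RefSeq held 90 of the 94 members. They were 54 protein-coding genes (60%), 26 lncRNA genes (28.9%) and 10 pseudogenes (11.1%). Among the genes with at least 50 counts in the same 3 libraries the shares were 90.5%, 3.36% and 5.00%. Among the 60 genes on only in DLD1 and HCT8 they were 79.3%, 17.2% and 1.72%. Of the 33 members named only by a LOC number, 8 now carry a name, and 5 of these names are of the kind the rule leaves out (MSRB3-AS1, IRX4-AS1, HSD17B3-AS1, LINC00973 and LINC02008).

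Transcription and chromatin factors were 7 members, and all of them were within 2-fold in both comparisons with untreated HCT116 given below. CBFA2T3, a corepressor of the ETO family, had 1277 counts in HCT116, 1548 in HCT116 under hypoxia and 1482 in NCM460. PRRX2, a homeobox factor of limb and face mesenchyme, had 1224, 1005 and 1387. IRX4, a homeobox factor of the heart ventricle, had 869, 423 and 841, so that the hypoxia library was the low one. TBX18, a T-box factor of the epicardium and somites, had 786, 686 and 636. ZNF385B, MUM1L1 (now PWWP3B) and ZBTB8B were the others, with 121 to 773 counts.

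Signalling genes were 12 members, from ligands to inhibitors. The ligands WNT3A (333, 195 and 440 counts in HCT116, HCT116 under hypoxia and NCM460), ANGPT2 (219, 188 and 216) and PTH2 (72, 77 and 69) act on Frizzled receptors, on the endothelial receptor TIE2 and on a parathyroid hormone receptor. RET, the receptor tyrosine kinase of the GDNF family, had 795, 739 and 771 counts. CD40, a receptor of the TNF receptor family on B cells and some epithelia, had 1044, 773 and 977. Both receptors were nearly level in the 3 libraries. IL1RAPL1, an interleukin-1 receptor-like protein of synapses, had 227, 760 and 525 counts, with untreated HCT116 the lowest. DDIT4L, an inhibitor of mTOR signalling, had 807, 1239 and 692 counts. PKIA, an inhibitor of protein kinase A, had 268, 212 and 300. SHISA8, LIN7A, MRAP2 and FNDC4 had 76 to 749 counts.

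Channels and transporters were 7 members. SLC6A17, a transporter of neutral amino acids in synaptic vesicles, had 1734, 1003 and 1968 counts in HCT116, HCT116 under hypoxia and NCM460. FAM155B (now NALF2), an auxiliary protein of the sodium leak channel, had 1342, 587 and 1381. Both were lowest under hypoxia. ANO5, KCNK13 and KCNN3, channel genes of muscle and nerve among other tissues, had 54 to 351 counts, and SLC22A17 had 344 to 452.

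Adhesion, matrix and axon proteins were 6 members. CNTNAP3B, a contactin-associated protein, had 1700, 1391 and 614 counts in HCT116, HCT116 under hypoxia and NCM460. Its near-identical copy CNTNAP3 had 1222, 1458 and 573 in those libraries but 6 to 54 in the 5 others, and how reads shared by the copies were counted is not given in the sources used here. DPYSL5, which acts in axon growth, had 1153, 600 and 842 counts, and LRP1B, a large lipoprotein receptor, had 659, 702 and 452. CDH22 (155, 264 and 235), MAMDC2 (154, 189 and 219) and SPOCK3 (102, 178 and 200) were lowest in untreated HCT116.

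Genes of enzyme families and lipid carriers were 9 members. GALNT14, which starts O-linked glycans, had 719, 284 and 1272 counts in HCT116, HCT116 under hypoxia and NCM460. CYP4F22, an omega-hydroxylase of skin lipids, had 318, 347 and 733. LRAT, which makes retinyl esters, had 466, 344 and 376. TRHDE, which cleaves thyrotropin-releasing hormone, had 433 and 348 counts in the HCT116 libraries and 66 in NCM460. PNPLA5, a lipase, had 204, 55 and 211 counts. CA8, ST6GALNAC5, FABP6 and AADAC had 55 to 286.

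Germ cell, CSAG and MAGE family genes, grouped by hand, were 4 members. M1AP, needed in male meiosis, had 1378, 1288 and 1291 counts in HCT116, HCT116 under hypoxia and NCM460, nearly level. CSAG3 had 467, 453 and 323 counts, CSAG2 had 71, 134 and 50, and MAGEE1 had 263, 140 and 350. The other protein-coding members were ARL14EPL, GFY, ELMOD1, TMSB15A and KRT222, and the named pseudogenes were CCNYL2, TUBBP5, FAR2P1 and ALG1L10P. Per kilobase of exon, which could be computed for 59 members with GENCODE lengths, the mean level over the 3 libraries was highest for PRRX2 (17.8 CPM per kb), OR51B5 (17.5) and OR51B4 (13.5). M1AP (8.43), CSAG3 (7.29) and TMSB15A (7.29) followed.

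The 33 loci named by a LOC number held 23.5% of the member counts in HCT116, 24.6% in HCT116 under hypoxia and 28.2% in NCM460. LOC107986198, a lncRNA gene on chromosome 4, had 1270, 1150 and 2255 counts in that order. LOC105374020, on chromosome 3, had 1204, 1990 and 587. LOC105379051, on chromosome 5, had 1124, 514 and 1266. LOC105376938, on chromosome 3, had 566, 1127 and 1008. LOC105379362 had 613, 574 and 500 counts, and the other 28 had 53 to 605. The order of the 3 libraries differed from locus to locus.

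Positions (RefSeq, GRCh38.p14) were known for 90 members, on 18 chromosomes. Chromosome 2 held 10 of them (11.1%, against 6.72% of the genes with at least 50 counts in the 3 libraries), chromosome 9 held 9 (10% against 4.30%), chromosome 11 held 9 (10% against 5.87%) and chromosome 3 held 8 (8.89% against 5.68%). Chromosome X held 7 (7.78% against 3.19%). Of the 9 on chromosome 11, 7 belong to the OR51 cluster described below. Chromosomes 1 (5.56% against 10.5%), 16 (1.11% against 4.69%) and 17 (1.11% against 6.04%) were below their share. Chromosomes 7, 13, 15, 18 and 21 held 0, against 4.88%, 1.71%, 3.31%, 1.41% and 0.84% of those genes. With 90 members, 0 on the smallest of these is little remarkable, and the shares were not tested. Within 1 Mb of another member lay 29 of the 90, in 12 clusters, and 61 lay alone.

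**Figure D3:**
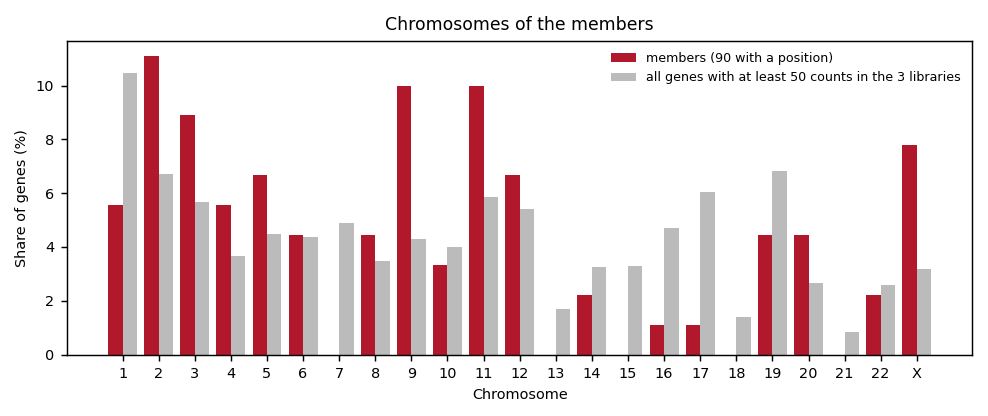
Share of genes on each chromosome, in percent, for the 90 members with a position (red) and for all genes with at least 50 counts in the 3 libraries (grey). Chromosomes 2, 9, 11, 3 and X hold 10, 9, 9, 8 and 7 members, and 7, 13, 15, 18 and 21 hold 0.

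The largest cluster was 7 olfactory receptor genes of the OR51 family at chr11:5301014-5505652, within 204.6 kb. Of the 865 rows of olfactory receptor genes in the table, 9 had at least 50 counts in the 3 libraries. OR51B5 (chr11:5340318-5505652) had 3797 counts in HCT116, 5882 in HCT116 under hypoxia and 1464 in NCM460. OR51B4 had 706, 964 and 335, OR51B2 had 370, 277 and 77, and OR51I1 had 300, 164 and 129. Pseudogene counts were 311, 125 and 134 for OR51K1P, 238, 94 and 100 for OR51A10P, and 113, 70 and 52 for OR51B3P. All 7 had fewer counts in NCM460 than in untreated HCT116, and the 5 other libraries had 0 or 1 count for the 7 together. The OR51 genes made up 14.3% of the member counts in HCT116, 19.5% in HCT116 under hypoxia and 6.22% in NCM460.
Counts within the cluster were uneven. The span of OR51B5 contains 11 other counted genes, of which OR51K1P, OR51I1 and OR51A10P are members and the 8 others had at most 4 counts in any library. OR51K1P had 8.19% of the OR51B5 count in HCT116, 2.13% under hypoxia and 9.15% in NCM460. OR51I1 had 7.90%, 2.79% and 8.81%, and OR51A10P had 6.27%, 1.60% and 6.83%. The hypoxia library was thus the low one for all 3 ratios, and HCT116 and NCM460 were close. The strand of the counts is not given in the sources used here, so reads of OR51B5 and of genes inside it cannot be told apart. HBE1, the embryonic beta-like globin gene next to the cluster (chr11:5268345-5269945), had 5765, 8881 and 3551 counts and missed the rule with 6 counts in DLD1. OR51AB1P and OR51B8P missed it with 13 and 15 counts in NCM460.

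**Figure D4:**
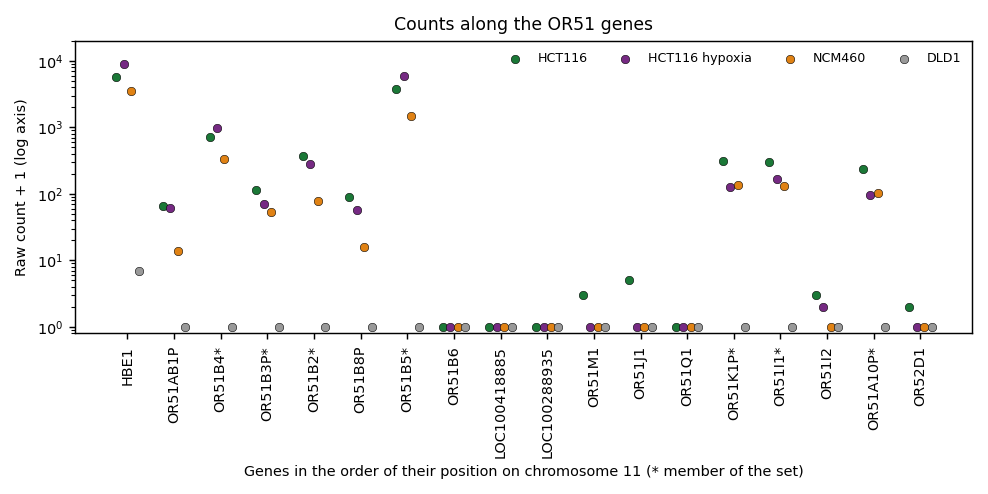
Raw count + 1 (log axis) of 18 genes in their order on chromosome 11, from HBE1 to OR52D1, in HCT116, HCT116 under hypoxia, NCM460 and DLD1. Members (*) and HBE1 stand at 52 to 8881 counts in the first 3 libraries, several genes between them are at or near 0, and DLD1 is at 0 but for 6 counts of HBE1.

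The 11 other clusters were pairs. PTH2 and GFY on chromosome 19 are 305 bases apart with 0 genes between them; GFY, a Golgi protein of olfactory neurons, had 286, 430 and 135 counts in HCT116, HCT116 under hypoxia and NCM460. IRX4 and LOC101929056 (IRX4-AS1) overlap at chr5:1877413-1887179, and the latter had 198, 168 and 152 counts. CD40 and CDH22 on chromosome 20 are 43.9 kb apart, also with 0 genes between. CSAG2 and CSAG3 lie in 52.0 kb of chromosome X, among MAGEA genes. CSAG2 and CSAG3 are near-identical copies, so their split is uncertain. Between and beside them MAGEA3, a cancer-testis antigen gene, had 3386, 2023 and 3513 counts and missed the rule with 35 counts in HIEC6, and MAGEA2 missed it with 30 in HCT116 under hypoxia. The remaining pairs were CCNYL2 and RET, CYP4F22 and LOC102724279, DPYSL5 and FNDC4, LOC105376938 and LOC102723596, LOC101928131 and SPOCK3, MRAP2 and TBX18, and LOC107987110 and LOC107987112, 263 to 990 kb apart. Between DPYSL5 and FNDC4 lay 35 other counted genes, 22 of them with at least 50 counts in the 3 libraries.

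Hypoxia in HCT116 was compared as 1 library against 1, so the values have no replicate check and no test. Counts were scaled by TMM, and the interval of a difference (95%, exact binomial) covers counting error only. The hypoxia library was unlike the others in its TMM factor (0.790 against 1.01 for untreated HCT116) and in RN7SK, a small nuclear RNA, at 4.05% of its counts against 2.85%. Hypoxia response genes, such as CA9 (6 and 1039 counts) and ANKRD37 (48 and 10316), were all higher in it, 15 of 15. So were 7 of 7 fibroblast and mesenchyme markers, at a summed 60.4 CPM against 21.8, and their part in the differences was not tested. The largest counts were those of COL1A1 (714 and 1839) and VIM (324 and 1142). LUM, DCN, THY1 and PDGFRB had only 4 to 34 counts in these libraries. The members were spread on both sides of 0. Their median log2 difference was 0.11, from -1.85 to 2.02, against -0.00 for the 13308 genes with at least 50 counts in both libraries. At least 2-fold higher under hypoxia were 10 of 94 (10.6%), against 9.36% of those genes, and at least 2-fold lower were 10 (10.6%), against 11%. Both shares were near the background. The interval lay above 0 for 35 members, below 0 for 31 and over 0 for 28, and wholly beyond 2-fold for 5 higher and 4 lower. Scaled by library totals, the median was -0.25 where all genes had -0.36, so that 4 members were 2-fold higher and 17 lower. The distance of the members' median from that of all genes was 0.11. It is the same under each scaling by arithmetic, because a scaling shifts every gene alike, so this is no check.

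The highest differences belonged to genes of unlike kinds. IL1RAPL1 went from 227 to 760 counts, a log2 difference of 2.02 (1.80 to 2.24). ARL14EPL, a gene of little known function, went from 189 to 603, or 1.95 (1.71 to 2.19). The lncRNA genes LOC105374003 (LINC00973) and LOC105373896 followed at 1.75 (145 and 405 counts) and 1.65 (100 and 260). LOC105373914 was at 1.30, LOC105376938 at 1.27, CSAG2 at 1.19, LOC105374019 at 1.12, SPOCK3 at 1.08 and CDH22 at 1.04. The value of CSAG2 (71 and 134 counts) is uncertain, because its reads cannot be split surely from CSAG3, which was at 0.23 (467 and 453).
The lowest were the pseudogenes LOC643219 (GPAT2P1), at -1.85 from 318 to 73 counts, and LOC100418939, at -1.81 from 377 to 89. PNPLA5 was at -1.62 and KCNK13, a potassium leak channel, at -1.57 with 193 and 54 counts. KRT222, a keratin-like gene, was at -1.40. GALNT14, OR51A10P, OR51K1P, ANO5 and LOC101929748 were at -1.07, -1.07, -1.04, -1.04 and -1.02. By class, the median was 0.47 for the 6 adhesion, matrix and axon genes, -0.52 for the 7 channels and transporters, -0.42 for the 7 olfactory receptor genes and 0.13 for the 33 LOC loci. It was 0.05 for the 12 signalling genes, -0.01 for the 7 transcription and chromatin factors and -0.04 for the 9 genes of enzyme families and lipid carriers. The 5 other protein-coding genes had 0.47, the 4 germ cell, CSAG and MAGE family genes 0.20 and the 4 named pseudogenes 0.04. Members with CpG-rich promoters had a median of -0.02 (n = 25) and the 26 others with a known promoter 0.45. Their median levels were 9.08 and 3.83 CPM, and the same split was not made for genes outside the set.

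**Figure D5:**
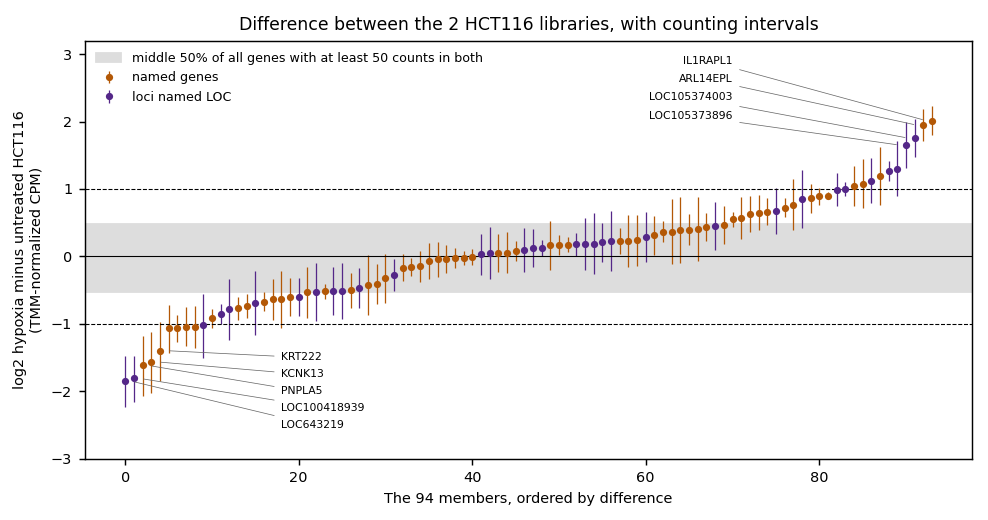
log2 difference of TMM-normalized CPM between HCT116 under hypoxia and untreated HCT116 for the 94 members in rising order, 1 library each. Bars are 95% counting intervals, the grey band holds the middle 50% of all 13308 genes, and the dashed lines mark 2-fold; the members run from -1.85 to 2.02 and 74 lie within 2-fold.

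The library labelled NCM460 differed from untreated HCT116 by at least 2-fold in a larger share of the members than of all genes. The median log2 difference, NCM460 minus HCT116, was -0.08 over the members, but 7 of 94 (7.45%) were at least 2-fold higher and 12 (12.8%) at least 2-fold lower. Among the 13614 genes with at least 50 counts in both libraries the shares were 2.08% and 2.06%. This was 1 library against 1 and was not tested. The 13614 genes were not matched to the members for level, and differences vary more at low counts. TRHDE had the lowest value, -2.61 (66 and 433 counts), followed by OR51B2 at -2.16 (77 and 370). LOC107987178 was at -1.94, with 90 and 370 counts. CNTNAP3B was at -1.37, OR51B5 at -1.27 and FABP6, the ileal bile acid carrier, at -1.24. Of the 7 olfactory receptor genes 6 were at least 2-fold lower, and OR51B4 was at -0.97. These 6 of the 12 lower members lie in the same cluster, so they are not separate differences. The highest were LOC102724279 (CLEC4OP) at 1.57, LOC105369202 at 1.44, IL1RAPL1 at 1.31 and CYP4F22 at 1.31. RET (0.06), CD40 (0.01), M1AP (0.01) and IRX4 (0.05) were nearly level.

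Fits over several lines set members that are on in 1 line against lines without them. The rule fixes the members at 3 counts or fewer in DLD1 and HCT8, and they passed the filter through HCT116 and NCM460 only, so the counts of members called below are given as a description and say nothing about a response to hypoxia or a difference between groups. Hypoxia against no treatment over the 6 CRC libraries (edgeR's quasi-likelihood test, Benjamini-Hochberg adjusted p under 0.05) called 0 of 94 members and 0 of 21045 genes (0%), with 0 members and 606 genes at an unadjusted p under 0.05. With the line as a block it called 0 members and 200 genes (0.95%). At an unadjusted p under 0.05 were then 4 members and 3884 genes (18.5%). These were IL1RAPL1, ARL14EPL, LOC105376938 and OR51B5. Each had 0 or 1 count in every DLD1 and HCT8 library. Their p-values thus rest on 1 HCT116 library against 1 and say nothing about a response. DESeq2 without the block called 55 of the 15762 genes with an adjusted p (0.349%) and gave none for the 94 members. With the block it called 1666 of 15333 genes (10.9%) and 0 members, and gave no adjusted p for 15 of them. The CRC lines against the normal lines, over the 5 untreated libraries, gave 0 members and 0 of 19964 genes (0%) in edgeR, with 0 members and 542 genes at an unadjusted p under 0.05. DESeq2 called 143 of 16219 genes there (0.882%) and 0 members, with no adjusted p for 30 of them. Both groups of that comparison hold 1 library with the members on, and the median log2 fold change over the members was -0.52.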

How the data were processed

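Total RNA of 8 libraries (5 lines) was sequenced, and the authors deposited 1 table of raw read counts per gene, without normalization. All 8 columns were used and 0 were left aside. The methods name GRCh37.p13, while the submitters' processing notes name GRCh38 and HISAT2 2.0.4; the table has no coordinates. The counter, strand and treatment of multiply mapped reads are not given in the sources used here. Names, positions and promoters were taken from RefSeq (GRCh38.p14), which matched 90 members (80 by symbol, 8 by gene ID, 2 by older symbol). Exon lengths came from GENCODE release 44.

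Tests used edgeR 4.0.16 on genes that reached 10 counts in 2 or more libraries, with DESeq2 1.42.0 as an alternative, in R 4.3.3. Only the edgeR hypoxia fit, with and without the block, was also run on simulated counts, which held no differences between lines. DESeq2 and the comparison of CRC with normal lines were not simulated. Without the block, p-values measure the spread between lines. With it, they measure how the hypoxia difference varies from line to line. In the hypoxia fits the members had more than 3 counts only in the HCT116 libraries. Hypoxia libraries pair with untreated ones by line (r of deviations 0.836, 0.857 and 0.82, against -0.611 to -0.0599 for other lines). The members, lists and named genes were chosen with earlier results of these data known. Named genes were the 10 members highest in CPM, the 6 largest hypoxia differences each way, members within 1 Mb of another or in a group of at least 3 by name, those nearest the threshold, and those over 2 in log2 between NCM460 and HCT116. Others were named after their values were seen, and 1 member is not reported by name here. The functional classes were assigned by hand after the members were known. Intervals used SciPy 1.17.1.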

Additional observations from a re-analysis of the deposited data

How the results depend on the processing

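The number of members was 63 to 118 with a minimum of 30 or 100 counts, a maximum of 1 count or scaled counts, and 154 with a maximum of 10. With 1 library left out it was 100 to 161, the highest without HIEC6. The median hypoxia difference of -0.25, and the counts of 4 higher and 17 lower, under library totals are the shift of all genes, since that scaling moved every member by the same -0.36. Under upper-quartile and DESeq2 size factors 12 were higher and 7 lower. The rule fixes the members near 0 in DLD1 and HCT8, so the counts of called members say nothing about stability. They were 0 under the replicate block, upper-quartile normalization, DESeq2 with the block (chosen after seeing the data), no filter, or without either library of DLD1 or HCT8. They were also 0 under each of the settings run for the CRC lines against the normal lines, where a shared replicate number pairs nothing and the block was added after seeing the data. Without either HCT116 library no member passed the filter, so those fits gave no value, and DESeq2 without the block gave no member an adjusted p under hypoxia. In the CRC comparison the median of the members went from -0.52 to 0.08 without DLD1 or without HCT8.

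Depth limits the low members most: the counting interval of a hypoxia difference was 0.118 to 0.977 wide in log2. Each line has 1 library per treatment, so culture and line cannot be told apart, and in the CRC lines no run label occurs both with and without hypoxia.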
